A study of Mus musculus with 18 samples.

Results

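CpG-dense repeats of the mouse genome were followed through 18 methylation libraries of embryonic stem cells in which a version of DNMT1 had been put back. The members are 61674 CpGs, of 21867550 listed, chosen by a rule that uses position, sequence and read depth and no methylation value. Each lies on an autosome in sequence that the reference genome (GRCm38) masks as repetitive, has 11 or more listed CpGs within 250 bp either side, and is over 500 bp from every transcript start in GENCODE M21. Each had at least 5 reads in all 18 libraries, which 5.90% of the 1045674 listed CpGs of this kind did. The comparison set is 334542 unmasked CpGs under the same rules, 14.2% of the 2358062 listed.

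DNMT1 is the enzyme that copies CpG methylation onto the new strand after DNA replication, and cells without it lose methylation as they divide. Its RFTS domain, where the tryptophans W464 and W465 lie, reads methylated and ubiquitinated histone H3, and its first BAH domain, where W796 lies, reads trimethylated histone H4; both marks are found on silent chromatin. Young transposable elements such as LINE-1 elements and retroviral repeats are CpG-rich, are heavily methylated in most mammalian cells, and depend on DNMT1 for that methylation.

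All libraries came from mouse embryonic stem cells with a knockout of DNMT1 that were stably transfected with a DNMT1 vector and selected in puromycin. The 6 groups of 3 libraries carried wild-type DNMT1 (WT) or an alanine exchange at W796 (W796A), W465 (W465A), both of these (W465A/W796A), W464 and W465 (W464A/W465A), or all of them (W464A/W465A/W796A, the triple mutant). The exogenous protein was therefore made from a vector in every group, including WT, and knockout cells without a DNMT1 vector are not analysed here. The labels call the 3 libraries of a group biological replicates, and they say that several stable lines were made per group but not which line each library came from. The enzymes MspI, BfaI and MseI cut the DNA before bisulfite conversion and sequencing, so the unit throughout is the methylation level, the percentage of reads at a CpG that are methylated.

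The members lie in 17709 masked runs, of which 7420 hold 1 member and 1119 hold at least 10. Of the members, 66.3% are between genes, 29.6% in introns and 4.04% in exons, against 26.0%, 39.7% and 34.3% of the unmasked set. Only 34.3% of members have a 32-base sequence around the CpG that occurs once in the genome, and 35.5% have one that occurs 100 times or more. The unmasked set has 98.7% and 0%. For a member in many copies, a read may come from another copy, and how the authors placed such reads is not given in the sources used here. The CCGG site that MspI cuts holds 12.6% of all listed dense repeat CpGs but 0.248% of the members.

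When the runs were grouped by shared 12-base words, without any repeat annotation, they fell into 7069 sequence groups. The 5 that hold the most members hold 29332 of them, or 47.6%, and are numbered here by size, with 15885, 4358, 3703, 2992 and 2394 members. Groups 1 to 4 contain tandem arrays. Runs long enough were tested for units of 150 to 260 bases only. In group 1, 250 of 477 repeated such a unit, and in group 2, 52 of 74 did. In group 3, 168 of 200 did, and in group 4, 20 of 75. The commonest units had 208, 214, 212 and 204 bases. In group 5 none of 28 runs did, and shorter units were not searched for. In the runs of at least 5000 bp of these 5 groups, members sat near one end: between 95.5% and 98.4% of such runs had at least 90% of their members within 2000 bp of an end.

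A stretch of the run with the most members in each group is printed here, on the plus strand of GRCm38, because these groups hold so many of the members. Capitals mark member CpGs, and lower-case CpGs are those that missed a rule, such as the read minimum. They lie at chr3:91100036-91100243 (between genes, 9233 bp from 9130204L05Rik, its nearest protein-coding gene, as in all such distances here), chr8:67035987-67036200 (between genes, 145423 bp from Naf1), chr13:26440717-26440928 (between genes, 327245 bp from Hdgfl1), chr1:130599966-130600169 (an intron of Zp3r) and chr1:85133760-85133959 (an intron of C130026I21Rik).
Group 1: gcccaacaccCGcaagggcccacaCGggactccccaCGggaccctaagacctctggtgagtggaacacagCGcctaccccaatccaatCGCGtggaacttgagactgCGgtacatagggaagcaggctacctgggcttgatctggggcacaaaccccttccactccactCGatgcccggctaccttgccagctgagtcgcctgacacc
Group 2: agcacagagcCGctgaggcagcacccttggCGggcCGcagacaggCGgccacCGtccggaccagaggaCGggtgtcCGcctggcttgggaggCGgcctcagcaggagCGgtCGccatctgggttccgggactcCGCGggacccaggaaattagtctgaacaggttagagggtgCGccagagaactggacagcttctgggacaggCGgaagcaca
Group 3: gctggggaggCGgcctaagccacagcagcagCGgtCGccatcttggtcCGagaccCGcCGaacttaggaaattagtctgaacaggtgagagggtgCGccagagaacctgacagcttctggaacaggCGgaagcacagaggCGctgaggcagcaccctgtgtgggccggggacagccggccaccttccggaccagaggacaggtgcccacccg
Group 4: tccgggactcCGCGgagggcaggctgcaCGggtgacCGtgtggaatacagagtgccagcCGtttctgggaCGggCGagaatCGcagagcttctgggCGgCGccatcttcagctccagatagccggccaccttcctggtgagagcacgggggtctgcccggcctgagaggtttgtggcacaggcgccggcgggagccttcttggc
Group 5: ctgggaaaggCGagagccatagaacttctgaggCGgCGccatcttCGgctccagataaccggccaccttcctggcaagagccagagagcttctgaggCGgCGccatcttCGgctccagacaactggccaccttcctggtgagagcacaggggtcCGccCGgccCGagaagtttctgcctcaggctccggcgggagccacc
The first 4 are 1 repeat unit long, 208, 214, 212 and 204 bases, and hold 8, 14, 9 and 10 member CpGs. The group 5 stretch is 200 bases and holds 10. The letters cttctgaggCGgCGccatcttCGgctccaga occur in it more than once, closer together than the units searched for.

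Depth was alike in the 2 sets. The libraries held 59776439 to 138978763 CpG calls, and the median member had 13 to 30 reads per library, the median unmasked CpG 13 to 30. WT replicate 2 was the deepest. A single CpG with 13 reads has a wide counting error, so levels are compared as means over many CpGs, with the library as the replicate. P-values measure the spread between these libraries.

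The member level was 57.9%, 73.0% and 61.1% in the WT libraries and 45.9%, 69.4% and 61.5% in the W796A libraries, and these 2 groups overlapped. It was 29.3%, 18.8% and 20.3% in W465A, 14.5%, 18.4% and 14.1% in W464A/W465A, and 16.6%, 21.5% and 18.5% in the triple mutant. Every library of these 3 groups was below every WT and W796A library, while among themselves the 3 groups overlapped in part. W465A/W796A stood between, at 51.8%, 42.1% and 46.1%, below all WT libraries and above all W465A libraries. As shares of the WT mean of 64.01% ± 7.95 (SD, n = 3), W796A kept 92.1%, W465A/W796A 72.9%, W465A 35.6%, the triple mutant 29.5% and W464A/W465A 24.5%.

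**Figure D1:**
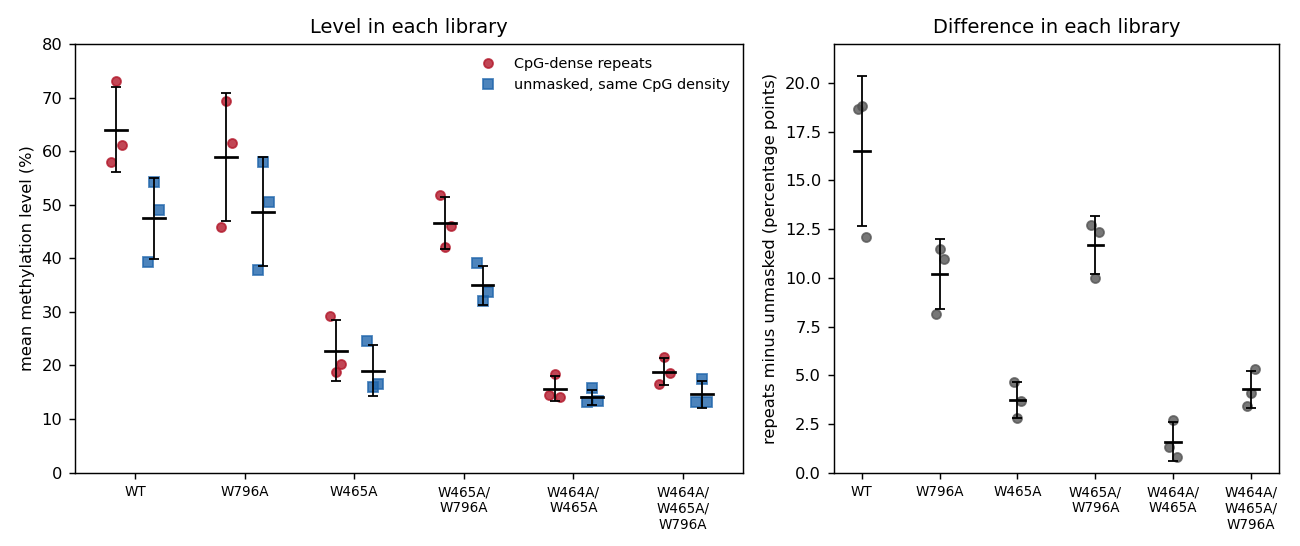
Left, the mean methylation level in percent of the dense repeat CpGs (circles) and of unmasked CpGs weighted to the same CpG density (squares) in each library; right, their difference in percentage points. Bars are the mean and SD of 3 libraries; the difference is above 0 in 18 of 18 libraries, between 0.80 points in W464A/W465A replicate 3 and 18.8 points in WT replicate 2.

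Exchanges in the RFTS domain lowered the level. Taking the mean of the change in WT and in W796A cells, W465A lowered it by 26.8 points and W464A/W465A by 44.2 points, and W464A on top of W465A lowered it by a further 17.4 points (exact permutation test of the libraries within backgrounds, two-sided, adjusted p = 0.035, 0.014 and 0.014 over 14 tests, the last 2 from the smallest p the test can give). By background, W464A on top of W465A changed it by -7.09 points in W465A cells and by -27.8 in W465A/W796A cells. W796A changed it by 7.33 points averaged over its 3 backgrounds, with an adjusted exact permutation p of 0.131. The W465A effect missed the test without W796A replicate 2 or 3 (-24.1 and -26.1 points, adjusted p = 0.058 for both, exact permutation) and over members with 21 or more CpGs (-19.2 points, adjusted p = 0.082). Without W796A replicate 1, the lowest of its group, the W796A effect was 9.51 points (adjusted p = 0.0495, exact permutation) and W796A stood 1.45 points above WT. The exact permutation test of 3 against 3 libraries cannot go below p = 0.1, the value that each mutant other than W796A reached against WT.

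The size of the W465A change was not the same in both backgrounds. Going from WT to W465A the level changed by -41.2 points, and from W796A to W465A/W796A by -12.3 points. The second change thus exceeded the first by 29.0 ± 9.36 points (standard error), and in the matched unmasked CpGs by 14.7 ± 8.14. Seen the other way, W796A moved the level by -5.08 points in WT, 23.9 in W465A and 3.19 in W464A/W465A. All 3 W465A/W796A libraries were above all 3 W465A libraries, while W796A and WT libraries overlapped. This difference between backgrounds has no test beyond its standard error. The labels give no DNMT1 protein amount, and its part in this was not tested.

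The unmasked CpGs were weighted so that each CpG count from 11 to 40 and over had the same share as among the members. Their mean level was 47.5% ± 7.59 in WT, 48.7% ± 10.2 in W796A, 34.98% ± 3.65 in W465A/W796A, 19.1% ± 4.83 in W465A, 14.6% ± 2.48 in the triple mutant and 14.1% ± 1.43 in W464A/W465A (SD, n = 3). The members were higher in 18 of 18 libraries, by 8.0 points on average (exact sign-flip permutation test over libraries, adjusted p = 1.07e-04, the smallest it can give). The difference was 18.7, 18.8 and 12.1 points in the WT libraries, 8.15, 11.5 and 10.96 in W796A, and 12.7, 10.001 and 12.4 in W465A/W796A. It was 4.65, 2.81 and 3.67 points in W465A, 1.29, 2.70 and 0.80 in W464A/W465A, and 3.43, 4.09 and 5.32 in the triple mutant. Distance to a transcript start was not matched: its median was 18755.5 bp for members and 4484 bp for the unmasked CpGs. Over CpGs more than 2000 bp from every start, the members were higher in 17 of 18 libraries. The difference there was 16.1, 14.8 and 8.12 points in WT and 0.0242, 1.32 and -0.531 in W464A/W465A.

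The difference was smaller with both RFTS tryptophans exchanged, averaged over the WT and W796A backgrounds. W464A/W465A narrowed it by 10.4 points and W464A on top of W465A by 4.76 points (exact permutation test, adjusted p = 0.014 for both). By background, the changes with W464A/W465A were -14.9 points from WT and -5.92 from W796A, and those with added W464A were -2.11 from W465A and -7.40 from W465A/W796A. For W465A alone the mean change of -5.67 points did not pass (adjusted p = 0.127, exact permutation), and it joins -12.8 points from WT with 1.48 from W796A. For W796A the mean change was 1.45 points (adjusted p = 0.441, exact permutation), and 0.706 without WT replicate 3. On the log2 ratio of the 2 levels, in place of their difference in points, the W464A/W465A effect was -0.093 and that of added W464A -0.074, and neither passed the test (exact permutation p = 0.295 and 0.075).

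**Figure D2:**
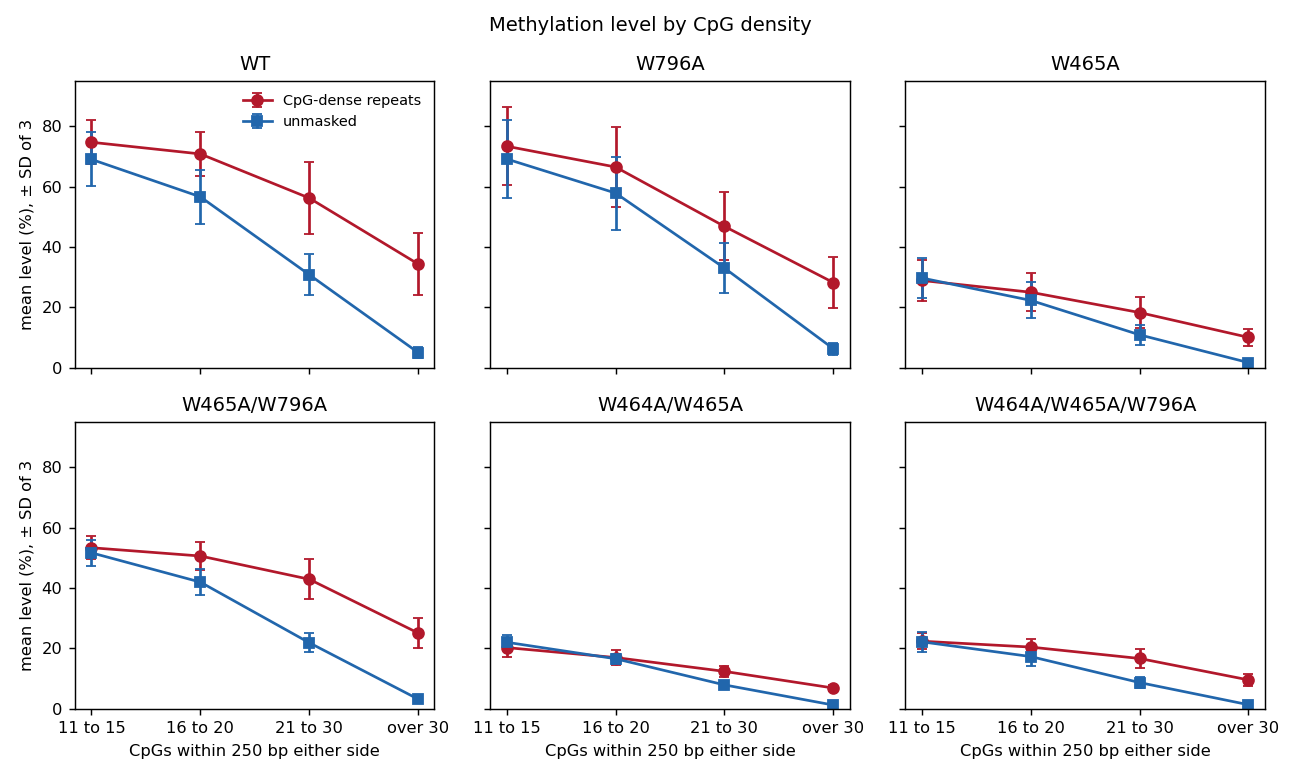
Mean methylation level in percent (± SD of 3 libraries) against the number of CpGs within 250 bp either side, for dense repeat CpGs (circles) and unmasked CpGs (squares), 1 panel per group. In WT the 2 lines part from 74.7% and 69.0% at 11 to 15 CpGs to 34.4% and 5.03% at over 30.

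In WT the sets differed least at the lowest density and parted as it rose. At 11 to 15 CpGs, 20991 members averaged 74.7% ± 7.27 in WT and the unmasked CpGs 69.0% ± 8.92. At 21 to 30 CpGs the WT levels were 56.2% ± 11.9 and 30.8% ± 6.78, and at over 30 they were 34.4% ± 10.2 in 5967 members and 5.03% ± 1.79 in the unmasked set. Most unmasked sequence this rich in CpG is CpG island, which is normally kept free of methylation. At 11 to 15 CpGs the mutants with RFTS exchanges alone had no such order: W465A had 28.9% ± 6.68 in the members and 29.7% ± 6.74 in the unmasked CpGs, and W464A/W465A 20.3% ± 3.15 and 22.05% ± 2.25. The repeats' dense CpGs were thus methylated in WT where unmasked ones of like density were not, and at over 30 CpGs the same order held in every mutant: W464A/W465A had 6.88% ± 1.04 against 1.24% ± 0.147. The threshold itself marks no step: members with exactly 11 CpGs had 74.4% ± 7.77 in WT, and repeat CpGs just outside the rule, with 10, had 74.4% ± 7.80.

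Among CpGs of high WT level the order was the other way. Among CpGs at 80% to 90% in WT, the W464A/W465A level was 20.8% ± 3.51 in the repeats and 27.8% ± 2.65 in the unmasked set, and the W465A level 30.7% ± 7.42 and 37.7% ± 8.04. Lower in the WT range the members were not below in most mutants. Among CpGs at 40% to 50% in WT, W465A/W796A had 32.4% ± 7.67 in the repeats and 27.9% ± 5.81 in the unmasked set, the triple mutant 11.6% ± 2.65 and 8.54% ± 2.49, and W464A/W465A 8.54% ± 0.96 and 8.20% ± 1.07, within their spread. W465A had 11.9% ± 3.41 and 11.1% ± 4.46. Among the mutants only W796A had the repeats below there, at 31.2% ± 10.2 against 45.3% ± 14.5. When the unmasked CpGs were matched on density and WT level together, the mean difference over the 18 libraries was -2.11 points in place of 8.0. It was -3.06 ± 0.569 points in W464A/W465A, -2.75 ± 0.952 in W465A, -5.13 ± 1.44 in W796A, -0.844 ± 0.879 in W465A/W796A and -0.804 ± 1.33 in the triple mutant (SD, n = 3). The WT libraries chose the matched CpGs here, and their own difference is then near 0 by construction, so no test is given for this match. With it the effects of W465A, W464A/W465A and added W464A on the difference were 0.816, 0.681 and -0.135 points. The members were below the unmasked CpGs in 13 of the 15 mutant libraries and above them in 2, by a mean of -2.52 points.

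**Figure D3:**
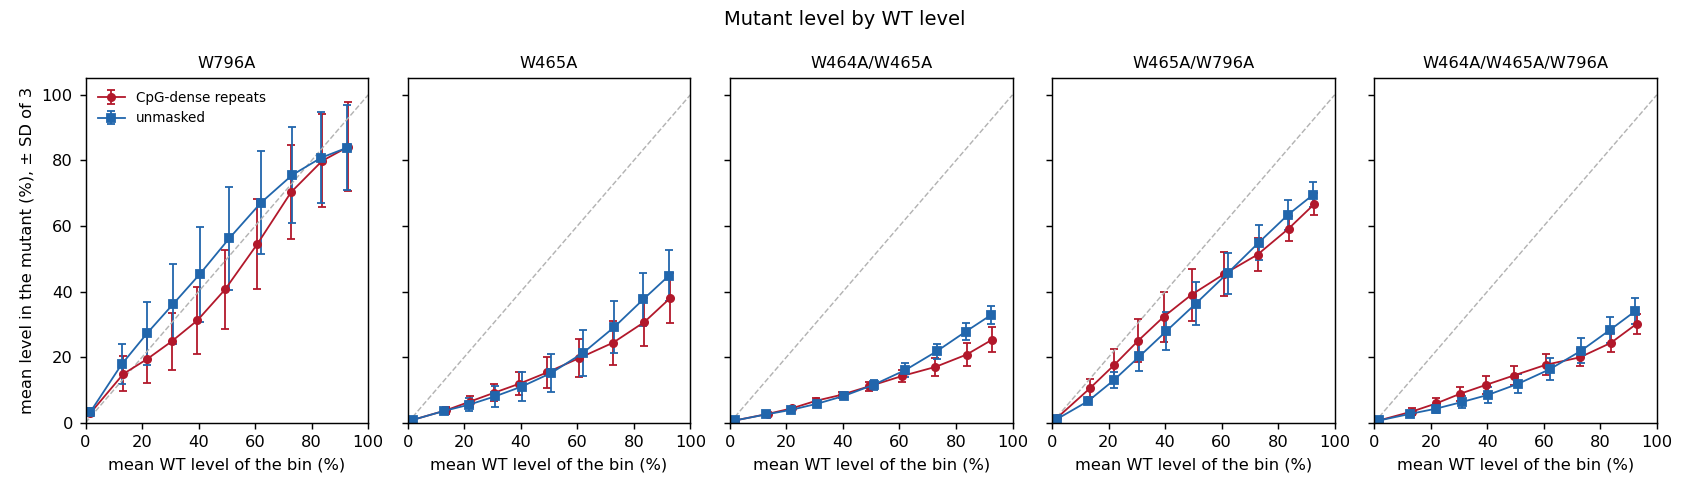
Mean level in each mutant in percent (± SD of 3 libraries) against the mean WT level of the same CpGs, in 10 bins of WT level; circles are dense repeat CpGs, squares unmasked CpGs, and the dashed line is equality. At 80% to 90% in WT the repeats lie below the unmasked CpGs in W464A/W465A, 20.8% against 27.8%.

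The level also differed with position and copy number. The classes of members given here were not matched to each other on density or sequence group. Members over 10000 bp from a transcript start were close to unmasked CpGs in WT, 65.4% ± 8.63 against 63.2% ± 8.76, and in W464A/W465A they had 15.6% ± 2.41 against 20.5% ± 1.75 (densities not matched). The 2493 members in exons had 40.6% ± 4.91 in WT, the 40906 between genes 65.9% ± 8.07. Members whose 32-base window is found once are those for which reads can be placed. In WT, W465A and W464A/W465A their levels were near those of all members, at 64.5% ± 6.82, 24.7% ± 5.85 and 17.3% ± 2.52. In W796A they had 62.7% ± 11.7, where all members had 58.9% ± 11.98, which is 97.2% and 92.1% of WT. Members with at least 1000 copies had 51.6% ± 13.8 in WT, 16.5% ± 4.39 in W465A and 11.4% ± 1.48 in W464A/W465A. In W796A they had 40.8% ± 10.9, or 79.1% of WT. Over the members found once, the mean difference from the matched unmasked CpGs was 4.83 points, and the W465A effect on it, -4.53 points, passed the test (exact permutation p = 0.005, adjusted p = 0.0117), which over all members it did not.

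The 5 large groups had different levels. Group 5 had 69.1%, 81.3% and 82.2% in the WT libraries, group 4 had 54.4%, 71.3% and 56.8%, and group 3 only 32.9%, 53.8% and 27.3%. Group 1 had 56.0%, 74.2% and 45.9% and group 2 had 48.6%, 67.8% and 48.6%. WT replicate 2 was the highest WT library in groups 1 to 4, and WT replicate 3 the lowest in groups 1 and 3 but the highest in group 5.

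**Figure D4:**
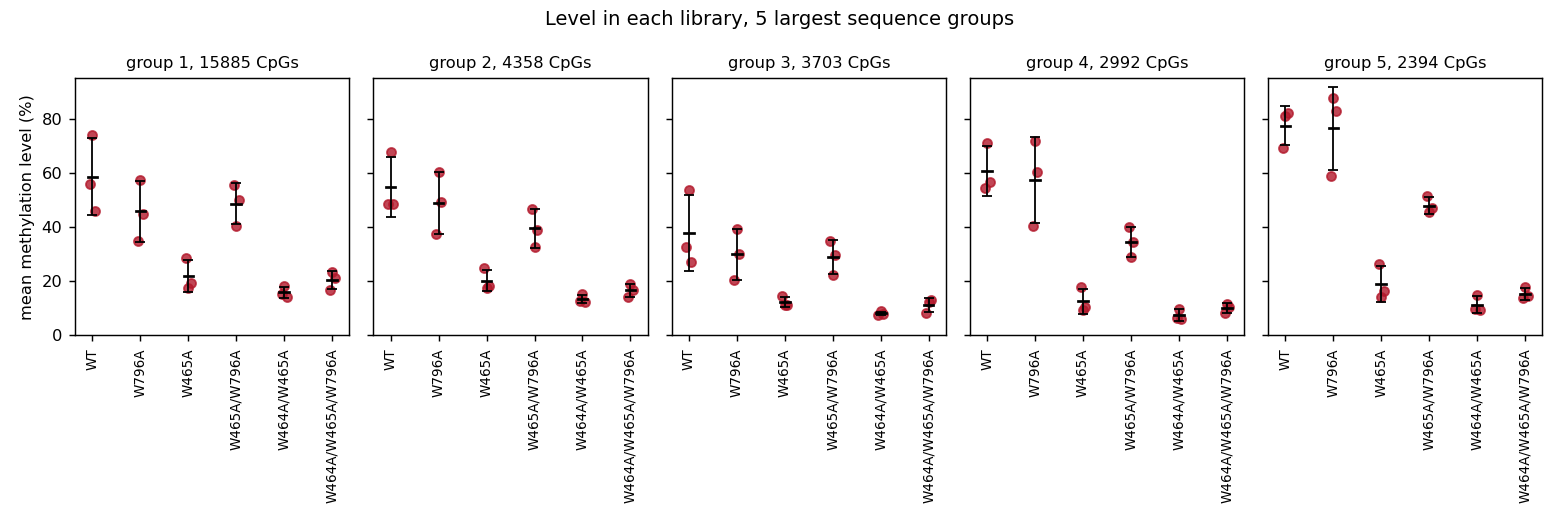
Mean methylation level in percent in each library (circles) with the mean and SD of 3 libraries, for the 5 sequence groups with the most members. W464A/W465A keeps 15.9% in group 1 and 7.51% in group 4, although WT has 58.7% and 60.8% there.

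In the 4 mutants that carry W465A, groups 4 and 5 kept smaller shares of the WT level than groups 1 to 3. From similar WT means, 58.7% ± 14.3 in group 1 and 60.8% ± 9.14 in group 4, W465A had 21.8% ± 5.91 and 12.7% ± 4.66, and W464A/W465A had 15.9% ± 2.05 and 7.51% ± 2.09. As shares of WT, group 1 kept 37.2% in W465A and 27.0% in W464A/W465A, group 4 kept 20.8% and 12.4%, and group 5 kept 24.6% and 14.6%. In W465A/W796A group 1 kept 83.1%, group 4 56.7% and group 5 61.9% of the WT mean. In W796A the order was the other way, with 94.6% and 98.8% in groups 4 and 5 and 78.1%, 89.2% and 79.0% in groups 1, 2 and 3. These shares are descriptions; the groups were not tested against each other.

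In W796A the tandem groups 1 to 3 parted from the other members. The other members had 62.3%, 75.01% and 72.2% in WT and 53.9%, 78.4% and 73.0% in W796A, which overlap throughout. Groups 1 to 3 together had 51.0%, 69.9% and 43.5% in WT and 33.2%, 55.3% and 43.4% in W796A. The other members exceeded groups 1 to 3 by 20.7, 23.1 and 29.5 points in the W796A libraries and by 11.3, 5.15 and 28.7 points in WT. WT replicate 3 thus looked like the W796A libraries in this respect, and the 2 other WT libraries did not. In the groups that carry W465A the same difference was between -1.13 and 9.47 points.

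**Figure D5:**
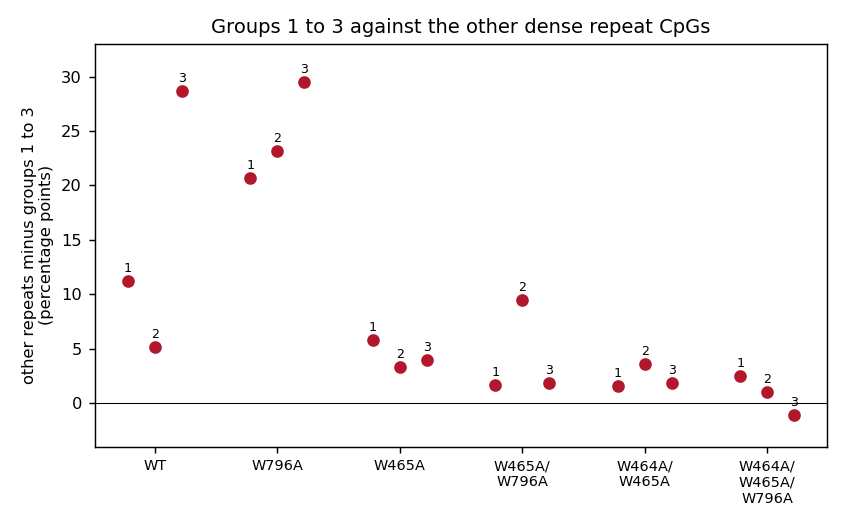
Level of the dense repeat CpGs outside sequence groups 1 to 3 minus that of groups 1 to 3, in percentage points, for each library (the digit is the replicate number). The 3 W796A libraries and WT replicate 3 lie at 20.7 or above, and no other library is above 11.3.

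This division into groups 1 to 3 and the rest was chosen after the values were seen, so it has no test. Without WT replicate 3, groups 1 to 3 in W796A were at 72.8% of WT and the other members at 99.7%. Without WT replicate 2 the figures were 93.0% and 102%. These figures leave out a WT library but keep the W796A library of the same number, although the numbers were taken to pair these groups. In replicate 3, groups 1 to 3 had 43.5% in WT and 43.4% in W796A. The values were 51.0% and 33.2% in replicate 1, and 69.9% and 55.3% in replicate 2. Within 1 density class, 21 to 30 CpGs, groups 1 to 3 had 48.9% ± 16.5 in WT and 35.7% ± 10.4 in W796A, and the other members 69.99% ± 6.39 and 67.7% ± 13.9. For the 511 runs of group 1 with at least 10 members, the reads of a group's libraries were pooled, which gives deep libraries more weight. The median run was then at 58.3% in WT, 47.7% in W465A/W796A, 34.4% in W796A and 19.3% in W465A.

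Within one repeat unit, neighbouring CpGs could differ in mean level over the copies that hold both. Exact 32-base sequences centred on a member and shared by many copies show this, since the same letters are then read at many places. Of the 8 that hold the most members, with at most 3 per group, 7 are printed, each on the strand that comes first in the alphabet and with the member CpG in capitals.
Window 1, group 1: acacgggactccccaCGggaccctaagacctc
Window 3, group 1: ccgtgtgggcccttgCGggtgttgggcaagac
Window 4, group 1: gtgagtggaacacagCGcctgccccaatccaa
Window 5, group 3: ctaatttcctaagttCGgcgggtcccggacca
Window 6, group 3: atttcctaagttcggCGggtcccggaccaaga
Window 7, group 4: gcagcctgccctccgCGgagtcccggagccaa
Window 8, group 4: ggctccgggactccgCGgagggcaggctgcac
Window 1 is found letter for letter in the unit printed for group 1, window 4 with 1 mismatch and window 3 with 5. Windows 5 and 6 overlap, with their CpGs 3 bases apart. Windows 7 and 8, printed on opposite strands, also overlap, and their CpGs are neighbours in the letters cgcg. The group given is the one that holds most of a window's members, from 75.3% for window 5 to 99.9% for window 1. The genome holds 4430, 3317 and 2233 exact copies of the first 3 and 3244, 3156, 1527 and 1487 of the rest.

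The CpG of window 4 was more methylated than that of window 1 in the 99 runs that hold both. The WT means were 64.5% ± 14.5 and 54.1% ± 18.4, and the difference was 6.26 to 14.1 points in the 3 WT libraries, 12.4 to 17.8 in W796A and 4.68 to 7.93 in W464A/W465A. Window 4 was the higher in 18 of 18 libraries and, by the mean over libraries, in 92 of the 99 runs. Windows 3 and 4 did not part in this way: in 227 shared runs window 4 was the higher in 13 of 18 libraries and in 113 runs, by -0.860 to 2.12 points in WT.

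The 2 adjacent CpGs of windows 5 and 6 also differed. In 352 shared runs the first, in the letters ttCGgc, had 46.1% ± 16.5 in WT and the second, in ggCGgg, 38.0% ± 14.2, and the first was the higher in 18 of 18 libraries and in 319 runs. In W465A/W796A the difference was 7.78 to 17.2 points, in W464A/W465A 0.90 to 2.42. Window 8 exceeded window 7 in 18 of 18 libraries and in 153 of 184 shared runs, by 3.98 to 8.48 points in WT and 0.742 to 1.93 in W796A. Shared runs are those of any sequence group that hold both windows. A library's windows share its reads and copies, so these counts are descriptions.

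To find changed places, every 1 kb tile was split into its member and its other CpGs, and each of the 155325 pieces with at least 3 CpGs was tested with a quasi-binomial model over all libraries. The 8140 member pieces hold 50881 members, with a median of 5 CpGs and 92 reads per library. A piece is called when it differs by at least 10 points with an adjusted p (Benjamini-Hochberg, over all pieces) under 0.05. Piece differences pool the reads of each group's 3 libraries, so a deep library such as WT replicate 2 counts for more. In W465A against WT, 7697 of 8140 member pieces were called lower (94.6%), where 82.5% of all pieces were. In W464A/W465A 7795 were lower (84.3% of all pieces), and in the triple mutant 7779 (84.5% of all). No member piece was called higher in any of these, and of all pieces 0.000644%, 0.000644% and 0% were. The median member piece differed from WT by -45.4, -54.8 and -51.9 points, and the median of all pieces by -41.0, -50.1 and -51.0.

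In W465A/W796A against WT 2946 member pieces were lower, 36.2% of them, where 24.0% of all pieces were, and 0 were higher, where 0.00129% were. This count rests on single WT libraries: it was 0 without WT replicate 2, 1637 without WT replicate 3, 183 without W465A/W796A replicate 3 and 794 without W465A/W796A replicate 2, and limma gave 737 and edgeR 1287. By sequence group, 203 of 275 pieces in group 4 and 281 of 358 in group 5 were called, and 462 of 1979 in group 1 and 43 of 565 in group 3. Against W465A, 3945 member pieces were higher in W465A/W796A, 48.5% of them, where 26.1% of all pieces were, and 0 were lower, where 0.00258% were. Leaving out W465A replicate 3 brought that count to 0, as did leaving out W465A/W796A replicate 1. Leaving out W465A replicate 2 gave 694 and W465A/W796A replicate 3 gave 2089, and limma gave 1780.

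No member piece was called in W796A against WT, where 0% of all pieces were called lower and 0.00386% higher; 1458 of 8140 member pieces had an unadjusted p under 0.05 (17.9%, and 5.35% of all pieces), and limma and edgeR also called 0. On simulated counts with the same comparison and 200 changed member pieces, the test recovered 2 of 100 given a change of 20 points. It recovered 29 of 100 given one of 40. The median difference was -16.7 points in group 1, -12.3 in group 3, -7.69 in group 2 and -7.65 in group 4. It was -2.47 in group 5 and -2.19 outside groups 1 to 5, against -0.484 over all pieces. These differences pool reads. As means of library levels, each member counted once, W796A minus WT was smaller in groups 1 to 5. It was -12.8 points in group 1, -7.97 in group 3, -5.91 in group 2, -3.28 in group 4 and -0.961 in group 5. Without WT replicate 3 the same test called 319 member pieces, 317 of them lower and 290 of these in group 1, or 14.7% of its 1979 pieces. Without W796A replicate 1 it called 3 member pieces lower, all in group 1, and 8 higher. Blocking all 18 libraries by replicate number called 8 member pieces, 6 lower and 2 higher, and blocking the WT and W796A libraries alone called 0. The share called over all pieces is not given for these fits.

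W464A on top of W465A, and W796A on top of W464A/W465A, called no member piece (0% of all pieces in either direction). At an unadjusted p under 0.05 there were 903 and 160 member pieces (11.1% and 1.97%, where 8.14% and 1.14% of all pieces were), and limma and edgeR called 0 in both. In the first of these, 1841 of 8140 member pieces had all 3 W464A/W465A libraries below all 3 W465A libraries and 31 the reverse, which is 22.6% and 0.381% of them and 18.3% and 0.790% of all pieces. In the second, all 3 triple-mutant libraries were above in 1045 and below in 128, which is 12.8% and 1.57% of them and 4.55% and 4.52% of all pieces.

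The piece with the most members was on chromosome 5 (134028001 to 134029000, between genes, 70715 bp from Castor2), with 36 members of group 1. It had 52.2%, 69.8% and 18.6% in WT, 16.05%, 24.1% and 21.3% in W796A, 24.7%, 17.6% and 19.4% in W465A, and 50.8%, 28.7% and 51.6% in W465A/W796A. WT replicate 3 lay with the W796A libraries there, on 461 to 1680 reads per library. The next was in an intron of Zp3r, which encodes a sperm protein that binds the egg coat, on chromosome 1 (130600001 to 130601000) and included part of the group 4 unit printed above. Its 34 members had 35.8%, 58.8% and 15.4% in WT and 4.23%, 6.11% and 4.36% in W464A/W465A, without overlap.

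In W465A, W464A/W465A and the triple mutant, the called pieces with the largest differences started near full methylation, as drops of this size require. For W465A they were on chromosome 18 (36836001 to 36837000, 4 members, 36992 bp from Zmat2), with 87.5%, 92.9% and 89.8% in WT and 9.38%, 0% (0 of 24 reads, which allows up to 12.5%) and 5.88% in W465A, and on chromosome 2 (99058001 to 99059000, 3 members, 391296 bp from Gm10800). The chromosome 2 piece had 100%, 93.3% and 100% in WT, 25%, 11.1% and 8.33% in W465A, and 5.13%, 11.1% and 7.41% in W464A/W465A, on only 15 to 51 reads per library. The quasi-binomial test gave it an adjusted p of 3.01e-05 in W465A and 4.49e-06 in W464A/W465A.

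Beside it stood a piece of group 5 on chromosome 1 (108812001 to 108813000, between genes, 1170392 bp from Cdh7), whose 4 members had 95.8%, 92.1% and 97.6% in WT and 3.00%, 10.4% and 2.27% in W464A/W465A (quasi-binomial adjusted p = 1.53e-06). For the triple mutant the 2 pieces were in introns of Cntnap2, which encodes a neuronal adhesion protein (chromosome 6, 46684001 to 46685000, 3 members), and of Clvs2 (chromosome 10, 33605001 to 33606000, 3 members). The Cntnap2 piece had 100%, 95.8% and 83.3% in WT and 11.1%, 8.33% and 2.22% in the triple mutant. The Clvs2 piece, again of group 5, had 95.2%, 85.7% and 96.7% in WT and 8.33%, 0% (0 of 18 reads, which allows up to 16.7%) and 9.09% in the triple mutant. These limits take 3 reads of the total and cover counting error only. These calls held in 10 of 10 other fits each (leaving out each library of either group, the compared groups alone, the block, limma and edgeR).

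For W465A/W796A the pieces were on chromosome 2 (138933001 to 138934000, 9 members, 344048 bp from Btbd3) and in an intron of Mrgpra2a, a receptor of sensory neurons, on chromosome 7 (47439001 to 47440000, 3 members of group 5). The first had 86.4%, 88.9% and 86.4% in WT and 57.8%, 35.6% and 19.0% in W465A/W796A, and the second 77.8%, 93.7% and 93.8% against 45.0%, 43.3% and 23.4%. Each call held in 8 of 10 other fits, with an adjusted p up to 0.176 and 0.159. The stretches of the chromosome 1, chromosome 7 and chromosome 10 pieces are printed because these 3, from different chromosomes and comparisons, share their letters around the member CpGs (plus strand, chr1:108811998-108812117, chr7:47439010-47439129 and chr10:33605769-33605888).
Chromosome 1 piece: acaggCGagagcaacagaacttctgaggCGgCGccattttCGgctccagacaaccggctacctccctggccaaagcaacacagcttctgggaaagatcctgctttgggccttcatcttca
Chromosome 7 piece: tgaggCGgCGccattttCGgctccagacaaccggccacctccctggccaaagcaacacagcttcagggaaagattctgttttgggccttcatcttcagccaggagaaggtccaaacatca
Chromosome 10 piece: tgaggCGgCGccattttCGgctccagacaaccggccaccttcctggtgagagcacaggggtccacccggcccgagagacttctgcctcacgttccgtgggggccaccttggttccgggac
The longest stretch that all 3 share is 35 bases and holds 4 CpGs. With the group 5 stretch printed at the start they share 16 bases.

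Few dense repeats kept methylation when W464 and W465 were both exchanged. Of 4933 member pieces with at least 5 members, the median was 73.1% in WT and 13.3% in W464A/W465A, and 5% of the pieces were above 31.6% there. Those at 40% or more in W464A/W465A numbered 72, a cut chosen after the values were seen. In the triple mutant, whose libraries did not choose them, 43 of the 72 were at 40% or more and their median was 41.4%, against 17.2% for all 4933. Of all 4933, 5% were above 34.8% in the triple mutant. Groups 1 to 4 held 5 of the 72, and at a cut of 30% they held 63 of 305. They held 1979, 769, 565 and 275 of all 8140 member pieces, and their share of the 4933 is not given here. All 72 were at 72.3% or more in WT.

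The 3 highest were in introns of Ift43, a subunit of the transport machinery of cilia (chromosome 12, 86125001 to 86126000), of Gm28043 (chromosome 17, 29672001 to 29673000) and of Thsd4 (chromosome 9, 60201001 to 60202000), with 5 members each. The Ift43 piece had 96.7%, 94.7% and 92.5% in WT, 53.7%, 65.0% and 60.0% in W464A/W465A and 49.5%, 62.5% and 42.1% in the triple mutant. The Gm28043 piece had 78.5%, 89.3% and 94.3% in WT and 35.5%, 38.3% and 40.0% in the triple mutant. The Thsd4 piece had 68.4%, 89.0% and 92.9% in WT and 47.3%, 47.6% and 32.9% in the triple mutant. They were chosen for their W464A/W465A level, so only the triple-mutant values are independent of the choice, and the lowest of those, 32.9%, is above that group's median of 17.2%. Stretches of the first and the third are printed because they look unlike the groups above (plus strand, chr12:86125187-86125306 and chr9:60201853-60201972).
Ift43 piece: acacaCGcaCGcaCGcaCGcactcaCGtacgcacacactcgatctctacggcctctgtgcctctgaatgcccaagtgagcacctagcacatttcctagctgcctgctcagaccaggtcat
Thsd4 piece: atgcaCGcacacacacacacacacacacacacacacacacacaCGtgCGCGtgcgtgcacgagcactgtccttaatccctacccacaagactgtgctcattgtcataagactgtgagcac
The Thsd4 stretch holds 37 bases in which a and c alternate, and its letters are 67.5% a or c. The Ift43 stretch is 61.7% a or c.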

How the data were processed

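The series was profiled by enhanced reduced representation bisulfite sequencing. The deposited table holds, per the file headers, 2 whole-number counts per CpG and library, methylated reads and all reads, for 21867550 CpGs whose positions equal those of the GRCm38 reference. The submitters' processing notes name cutadapt 1.2.1, Bismark 0.18.1, Bowtie 1.2 and the builds mm10 and GRCm38, with no role or order; duplicate handling, multi-mapping reads and strand merging are not given in the sources used here.

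The members, lists and tests were chosen with earlier results of these data known. Levels (methylated over all reads) were averaged per library, each CpG counted once, with numpy 2.4.6 and scipy 1.17.1 under Python 3.11.15; 14 tests over libraries were adjusted by Benjamini-Hochberg. Masked runs were grouped greedily when they shared at least 30% of their 12-base words, and at least 20 words, on either strand. A run counted as tandem when at least 70% of its letters matched at a lag of 150 to 260 bases over a segment of at least 600 bases. Pieces were tested with a quasi-binomial model with squeezed dispersion, and as alternatives with limma 3.58.1 (pseudocount 0.5) and edgeR 4.0.16 under R 4.3.3. The model was tested on simulated data in which 200 member pieces among 155325 were changed and all others kept the WT level. For W465A against WT it recovered 0 of 100 pieces changed by 20 points and 27 of 100 changed by 40. So few changed pieces make the adjustment stricter than in the measured W465A comparison, where 82.5% of pieces were called lower. These recoveries therefore do not describe that comparison.

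Named by rule were the 5 groups with the most members and the leading run of each, the 2 pieces with the most members, the 2 largest differences per mutant whose groups do not overlap, and the 3 pieces highest in W464A/W465A. No sequence is printed from chromosome 18. Over member pieces, same-numbered libraries deviated together in 1 of 15 pairs of groups: WT and W796A had correlations of 0.165, 0.165 and 0.383, the highest for unlike numbers being 0.207, so the numbers were taken to pair these 2 groups. The labels do not say what a number marks.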

Additional observations from a re-analysis of the deposited data

Results flagged for a closer look

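The change of the difference between dense repeats and unmasked CpGs with W796A took opposite directions. In WT cells it was -6.32 points, with all 3 W796A libraries below all 3 WT libraries. In W465A cells it was 7.98 points and in W464A/W465A cells 2.68 points, in both with all 3 libraries that carry W796A above all 3 that do not. The difference between these changes was not tested. In sequence groups 1 to 3, WT replicate 3 lay with the W796A libraries, and without it the change in WT cells was -8.54 points. Over CpGs whose 32-base window is found once, the difference was 11.4, 9.41 and 9.30 points in WT and 6.42, 7.54 and 8.37 in W796A. There it was 2.57, 1.60 and 2.30 in W465A and 6.29, 6.13 and 6.36 in W465A/W796A. In W464A/W465A it was 0.252, 1.57 and -0.00593, and in the triple mutant 2.15, 2.22 and 2.99.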

How the results depend on the processing

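Of 81 alternative values for mean levels 77 kept direction and side of the test, of 54 for the difference from unmasked CpGs 44 did, and of 57 counts of called pieces 44 stayed within 1.5 times. The W465A level effect was -19.2 at 21 or more CpGs. Matching on density and WT level gave -2.11, 0.816, 0.681, -0.292 and -0.135 points for the mean difference and the effects of W465A, W464A/W465A, W796A and added W464A, the WT libraries being near 0 there by construction. The log2 ratio gave -0.093 and -0.074 for W464A/W465A and added W464A. Over CpGs whose 32-base window is found once the W465A effect on the difference was -4.53. With the replicate block, pairing same-numbered libraries, the level effects of -26.8 (W465A), -44.2 (W464A/W465A) and -17.4 (added W464A) and the effects of -10.4 and -4.76 on the difference missed the test, whose smallest exact p with 64 arrangements is 0.03125; the block gave 1896 member pieces for W465A/W796A and 8 for W796A against WT and otherwise changed no call. At 10 reads, which leaves 2796 member pieces, 2628 (W465A), 2653 (W464A/W465A), 2647 (triple mutant), 934 (W465A/W796A) and 1342 (W465A/W796A against W465A) were called. With 1 CpG per piece the first 3 counts were 14241, 14783 and 14868. Shares over all pieces are not given for either setting. For W465A/W796A limma gave 737 and edgeR 1287 against WT (4.57% and 6.28% of all pieces), and limma 1780 against W465A (10.9% of all). Leaving out 1 library gave W465A level effects of -30.02 to -24.1, W796A effects of 5.59 to 9.51 and W796A minus WT of -10.3 to 1.45, reversed without W796A replicate 1. It gave 0 to 4076 pieces for W465A/W796A against WT, 0 to 4506 against W465A and 0 to 319 for W796A, again without shares over all pieces. Blocks on the difference, the block with WT and W796A alone, the match over mutant libraries, values without single libraries in groups 1 to 3 or for W796A in WT and fits of single pieces were chosen after seeing the data. The cause was not tested for any of these. Depth limits single CpGs, since the median member had 13 reads in the shallowest libraries.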
